A study of Mus musculus with 12 samples.

Results

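Cdc73 and 4 of its partners in the PAF1 complex (Paf1, Ctr9, Leo1 and Rtf1) were followed in whole brains of mice with 0, 1 or 2 mutant copies of Slc6a20a. These 5 genes are the members, out of 19775 genes in the table. Cdc73 was selected on its measured difference from wild type in these same 12 mice, so its levels against wild type are a description with no test. The other 4 belong by the make-up of the complex, and were tested. The question asked here is whether Cdc73 changed alone in its complex. Slc6a20a encodes a transporter of glycine and proline, and the mutant allele lacks exon 3. All mice were C57BL/6N males at about postnatal day 120, born to heterozygous parents: 4 wild type (WT), 4 heterozygous Slc6a20a+/- (HT) and 4 homozygous Slc6a20a-/- (HM). Polyadenylated RNA was sequenced, and each value is an estimated read count per gene divided by a size factor of its library (normalized count).

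The PAF1 complex travels with RNA polymerase II along transcribed genes. It aids the release of paused polymerase and the elongation that follows, and it is needed for ubiquitylation of histone H2B, which in turn favours methylation of histone H3. Ctr9 and Paf1 form the scaffold, Leo1 pairs with Paf1, Rtf1 stimulates H2B ubiquitylation and is held more loosely in mammals, and Cdc73 (parafibromin) is a tumour suppressor that also binds beta-catenin. Wdr61 (Ski8) is a further subunit, shared with the Ski complex of RNA decay.

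As a check of the genotypes, the targeted gene Slc6a20a averaged 679 ± 70.1 (WT), 345 ± 29.1 (HT) and 64.5 ± 9.95 (HM) normalized counts (SD, n = 4), with no overlap between any pair of genotypes. The sums over all genes ran from 33285000 to 33748600 normalized counts per mouse; the number of reads sequenced per library is not given by these values. Markers of neurons, astrocytes, oligodendrocytes and microglia were all above 0. Their sums overlapped between genotypes, except that microglia were lower in HM (3561 to 4177) than in HT (4276 to 4506), with WT at 3562 to 4724. In the HM mice the summed level of 8 olfactory bulb markers was 1520 to 2282 normalized counts, above the 1168 to 1436 of WT and the 1054 to 1347 of HT. Summed haemoglobin genes and Alas2 ran from 7780 to 21983 in WT, 6495 to 8717 in HT and 5859 to 29022 in HM. Against WT, 8 of 8 bulb markers were higher in HM (6 at an unadjusted p of 0.05), and 5 of 5 red cell genes were lower in HT (5 at that p). Of 8 choroid plexus markers, 0 were higher in HM (3 at that p, median log2 difference -0.39), with sums of 9914 to 18033 in HM and 15355 to 19918 in WT. Of 7 meningeal markers, 1 was higher in HM (0 at that p, median -0.15).

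Cdc73 was higher in every mutant mouse than in every WT mouse. Over all genes tested, 3.73% in HT and 4.22% in HM did not overlap with WT, in either direction. The WT mice had 1262, 1289, 1370 and 1458 normalized counts of Cdc73. The HT mice had 1999, 1771, 1481 and 2165. The HM mice had 1523, 2107, 1689 and 1993. The lowest mutant value, in HT replicate 3, lay just above the highest WT value, and the 2 mutant genotypes overlapped throughout. The means were 1345 ± 88.2 in WT, 1854 ± 296 in HT (137.8% of WT) and 1828 ± 269 in HM (135.9% of WT; SD, n = 4 each). On the scale of log2(normalized count + 1) the differences from WT were 0.45 (moderated SE 0.10) in HT and 0.43 (moderated SE 0.09) in HM. Both are set against the same 4 WT mice. The limma fit draws these SEs toward the spread of genes of like level. For Cdc73, which varied more than most, they are smaller than these mice alone would give. Slc6a20a itself fell stepwise with the number of mutant alleles, whereas the mean of Cdc73 in HM was not above that in HT. Between HM and HT the difference was -0.02 with a 95% interval from -0.27 to 0.24; since the gene was chosen for a difference in both mutants, this too is a description. Beside Cdc73, red cell genes tended to be lower in HT than in WT. In HM, bulb markers were higher and choroid plexus markers tended to be lower. The red cell sums in HT and the choroid plexus sums in HM overlapped with WT. With all mice in the fit, no marker passed against WT after adjustment. The part of these genes in the level of Cdc73 was not tested.

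The mutant mice also differed from each other more than the WT mice did. The coefficient of variation of Cdc73 was 6.56% in WT, 16.0% in HT and 14.7% in HM. The SD within genotypes was 0.19 on the log2 scale, larger than that of 97.3% of the 7267 genes whose mean was between 500 and 4000 normalized counts, where the median was 0.082. Rtf1 stood at the other end, with an SD of 0.031 that exceeded those of only 0.716% of these genes. The values were 0.080 for Paf1, 0.057 for Ctr9 and 0.054 for Leo1.

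Paf1, a scaffold subunit, did not pass the test in any comparison. Its WT mice had 1860, 1725, 1642 and 1742 normalized counts, its HT mice 1579, 1620, 1813 and 1639, and its HM mice 1783, 1598, 1796 and 1733. All 3 genotypes overlapped. The log2 differences from WT were -0.07 in HT (95% interval -0.19 to 0.05, limma adjusted p = 0.881) and -0.01 in HM (-0.13 to 0.10, adjusted p = 0.976).

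Ctr9, the other scaffold subunit, was at 2030, 2047, 1908 and 2110 normalized counts in WT, 2029, 2141, 2046 and 2127 in HT, and 2146, 2058, 1920 and 2014 in HM. The genotypes overlapped here too, and the means of 2024 ± 84.4, 2086 ± 56.4 and 2035 ± 94.1 differed by less than the SD in WT. The log2 differences from WT were 0.04 in HT (95% interval -0.06 to 0.14, limma adjusted p = 0.901) and 0.01 in HM (-0.10 to 0.11, adjusted p = 0.985).

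Leo1, the partner of Paf1 in the complex and the member with the fewest counts, was at 697, 670, 694 and 643 normalized counts in WT. Its HT mice had 723, 691, 681 and 729, and its HM mice 681, 737, 725 and 681. In each mutant genotype 2 mice exceeded the highest WT mouse and the other 2 did not. The log2 difference from WT was 0.06 in both, with 95% intervals from -0.06 to 0.19 (limma adjusted p = 0.898 in HT and 0.855 in HM).

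Rtf1, the H2B ubiquitylation subunit, had the smallest SD within genotypes of the 5. In HT alone its coefficient of variation was 3.35%, above the 2.70% of Ctr9. It was at 2894, 2913, 2937 and 2866 normalized counts in WT, 2867, 3021, 2878 and 3062 in HT, and 2987, 3024, 2971 and 3049 in HM. The HM mice all lay above the WT mice, with means of 3008 ± 34.9 and 2902 ± 30.1, whereas the HT mice overlapped with both. The log2 difference was 0.05 in HM (95% interval -0.03 to 0.13, limma adjusted p = 0.805) and 0.03 in HT (-0.06 to 0.11, adjusted p = 0.936). These intervals use a variance that limma draws toward that of genes of like level. For Rtf1, whose own spread was among the smallest, this makes them wider than these mice alone would give.

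**Figure D1:**
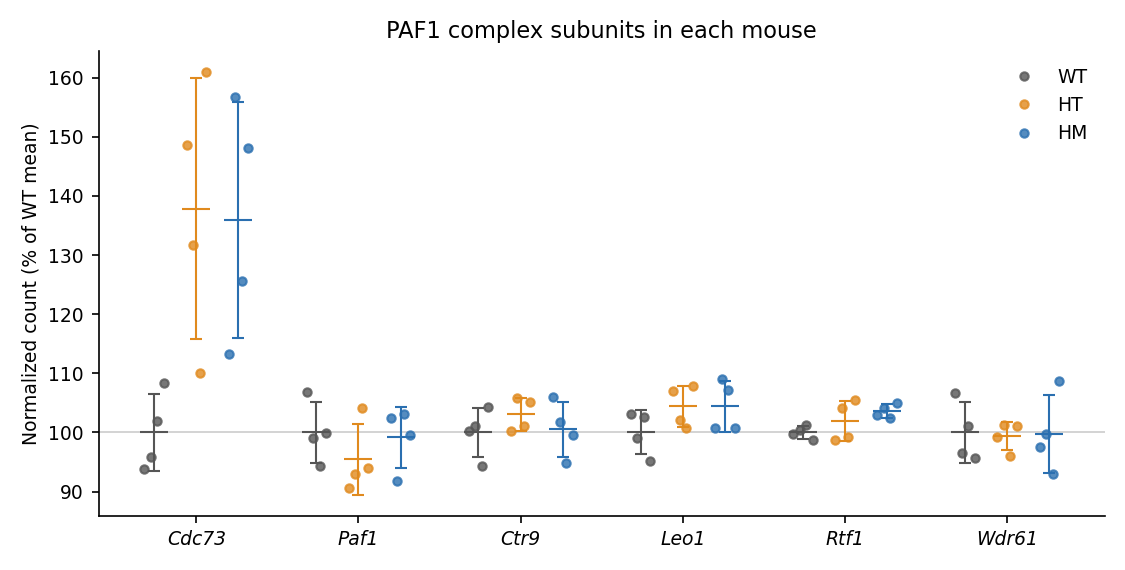
Normalized counts of 6 PAF1 complex subunits in each mouse, as a percentage of the gene's WT mean; points are mice, horizontal marks means and bars SD (n = 4 per genotype: WT grey, HT orange, HM blue). Cdc73 averages 137.8% in HT and 135.9% in HM with all mutant mice above WT, while the other subunits stay near 100.

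Counted over the other 4 subunits, 0 of 4 passed an adjusted p of 0.05 and 0 of 4 an unadjusted p of 0.05 by limma in each of the 3 comparisons. Over all genes tested, the adjusted threshold was passed by 0.00555% in HT against WT (1 gene, Slc6a20a), 0.0111% in HM against WT (2 genes, Slc6a20a and Gtf3c4, the latter lost under 3 alternatives) and 0.00556% in HM against HT (1 gene, Slc6a20a). At this threshold the test calls almost no gene, so a count of 0 says little about 4 genes. The intervals above carry the information, within the limit given for Rtf1, whose unadjusted p rests on the same moderated variance. At the unadjusted threshold the shares over all genes were 6.42%, 6.99% and 3.74%. Genotypes failed to overlap in 3.73%, 4.22% and 2.38% of all genes tested, against 0, 1 (Rtf1) and 0 of the 4 subunits. The medians of the 4 log2 differences were 0.04 in HT and 0.03 in HM against WT, beside medians over all genes tested within 0.01 of 0.

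Wdr61, the sixth subunit, which was not among the members, averaged 862 ± 44.1 (WT), 857 ± 20.6 (HT) and 860 ± 56.5 (HM) normalized counts. The genotypes overlapped, and its log2 differences from WT were -0.01 in both.

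**Figure D2:**
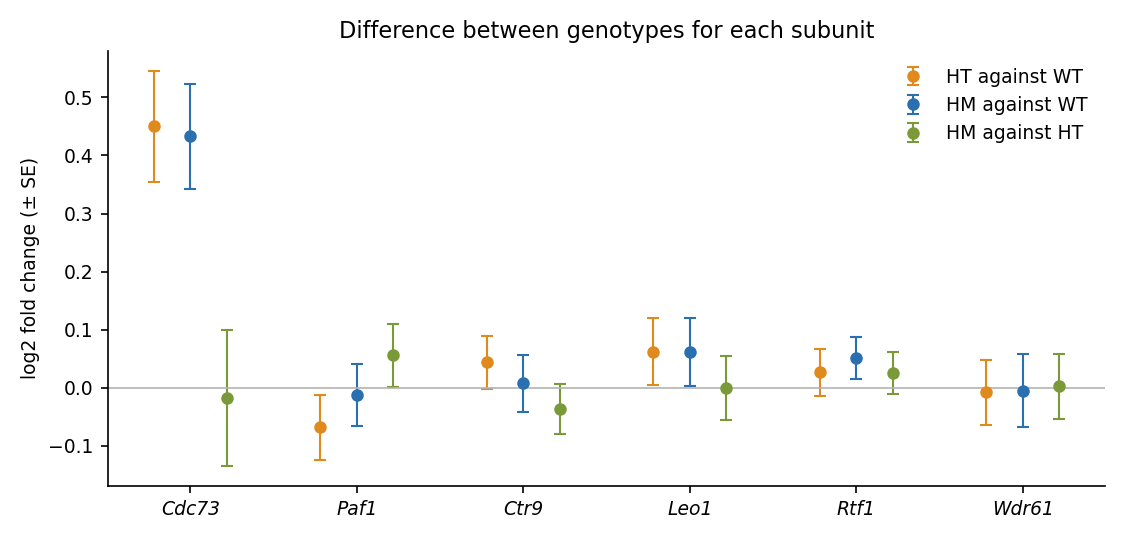
Log2 fold change (± moderated SE) of each subunit for HT against WT (orange), HM against WT (blue) and HM against HT (green), 4 mice per genotype. Cdc73 lies at 0.45 and 0.43 against WT and at -0.02 between the mutants; the other subunits lie between -0.07 and 0.06.

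Since each library holds all the subunits, the balance of Cdc73 to its partners can be read within a mouse. The log2 ratio of Cdc73 to the mean of the other 4 was -0.40, -0.33, -0.21 and -0.15 in the WT mice. It was 0.32, 0.11, -0.15 and 0.37 in the HT mice and -0.13, 0.36, 0.03 and 0.28 in the HM mice. HT replicate 3 fell among the WT ratios, next to WT replicate 4, and the other 7 mutant mice were above all WT mice. The mean ratio was -0.27 ± 0.11 in WT, 0.16 ± 0.24 in HT and 0.13 ± 0.23 in HM (SD, n = 4). The ratio carries the Cdc73 difference that chose the gene, so it is given as a description.

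Within genotypes, the partners did not follow Cdc73 from mouse to mouse in a common way. Measured as log2 deviations from the mean of its own genotype, the 12 mice spanned 0.55 in Cdc73, 0.24 in Paf1, 0.16 in Ctr9, 0.13 in Leo1 and 0.09 in Rtf1. After subtraction of genotype means, Pearson's r with Cdc73 over the 12 mice was -0.74 for Paf1, 0.03 for Ctr9, 0.40 for Leo1, 0.45 for Rtf1 and 0.34 for Wdr61. Paf1 thus tended to be low where Cdc73 was high, as in HT replicate 1 and HM replicate 2. The longest annotated transcript of Cdc73 is 11586 bases with 36.8% GC, and that of Paf1 is 2003 bases with 52.8% GC. After each library was corrected for GC content and transcript length, r was -0.52 for Paf1 and the SD within genotypes of Cdc73 was 0.18. The points share a library and its depth, so these are descriptions. Among 15128 protein-coding genes, the 5 most like Cdc73 by this measure were Prr5, a subunit of mTOR complex 2 (r = 0.94), Cep76, a centrosomal protein (0.89), Ddx21, an RNA helicase of the nucleolus (0.89), Rhobtb3 (0.88) and Sin3a, the scaffold of a histone deacetylase complex (0.88). None is a subunit of the PAF1 complex. They are the upper extreme of many correlations over 12 mice. At the other extreme the lowest r was -0.93, with 3 genes under -0.9 beside 1 over 0.9. Without the subtraction, r was 0.30 for Prr5 and 0.79 for Sin3a.

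**Figure D3:**
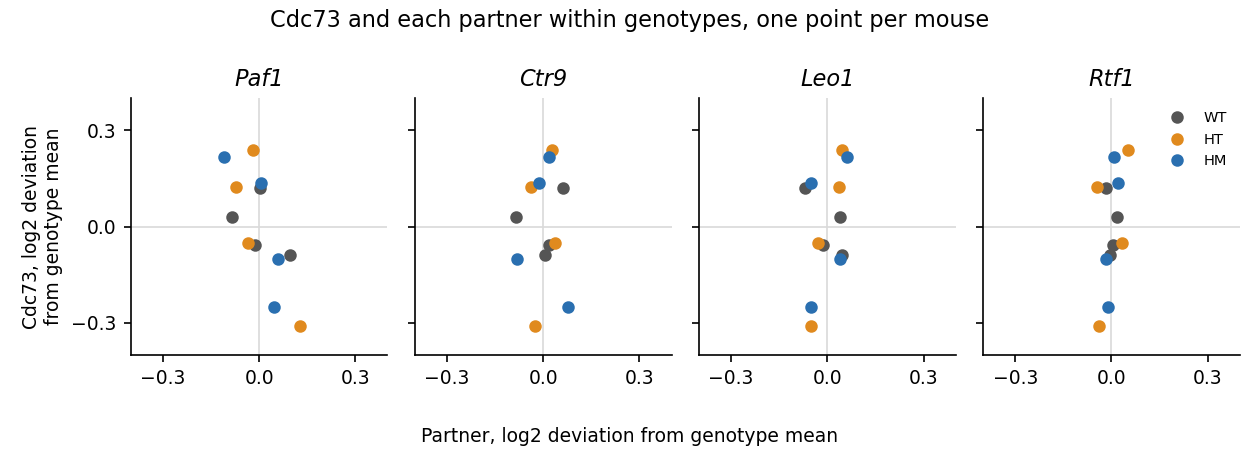
Log2 deviation of each mouse from its genotype mean, Cdc73 on the vertical axis and 1 partner per panel on the horizontal axis, on equal scales (WT grey, HT orange, HM blue). Cdc73 spans 0.55, the partners 0.09 to 0.24, and the points slope downward for Paf1 (r = -0.74).

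The column headers carry animal numbers, and mice whose numbers begin with the same 3 digits were set side by side; what these digits stand for is not given in the sources used here. In the set beginning with 276, Cdc73 was 1289 in the WT mouse, 1999 and 1771 in the HT mice and 1993 in the HM mouse. In the set beginning with 278, it was 1370 and 1458 in the WT mice and 1481 and 2165 in the HT mice. In the set beginning with 274, it was 1262 in the WT mouse and 1689 in the HM mouse. The remaining set, 271, held the HM mice at 1523 and 2107 and no WT mouse. As all mutant mice lay above all WT mice in Cdc73, every such set shows the same order by construction. For the partners, the mutant was higher in 3 of 8 pairs of a mutant and a WT mouse within a set for Paf1, 4 of 8 for Ctr9, 7 of 8 for Leo1 and 6 of 8 for Rtf1; pairs share mice and are not independent.

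Cdc73 (ENSMUSG00000026361) lies on the minus strand of chromosome 1 at chr1:143598800-143702893 (GRCm38). The annotation gives it 6 transcripts, of which 1, with 17 exons, codes for the protein and the other 5 do not. The table holds 1 value per gene, so which transcript carried the difference cannot be told apart here. A second protein-coding gene, B3galt2, a galactosyltransferase, lies inside Cdc73 on the opposite strand at chr1:143640664-143654614. Whether the library kit marks strand is not stated in the paper. The exon of B3galt2 shares 679 bases with 1 Cdc73 transcript that has a retained intron, and none with the coding transcript. B3galt2 averaged 1743 ± 32.9 (WT), 1773 ± 49.5 (HT) and 1786 ± 76.5 (HM) normalized counts. The genotypes overlapped and the log2 differences from WT were 0.02 (limma adjusted p = 0.949) and 0.03 (adjusted p = 0.908). The neighbours Glrx2, Trove2, Uchl5, Gm29170 and Rgs2 also overlapped between genotypes, with log2 differences from WT between -0.13 and 0.03. None of these 6 genes had mutant mice all above WT. Over all genes tested, mutant and WT mice failed to overlap, in either direction, in 3.73% (HT) and 4.22% (HM). Rgs13, further on, was under the minimum mean for the test, and the pseudogene Gm6397 and the snoRNA gene Gm25663 were not analysed here.

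**Figure D4:**
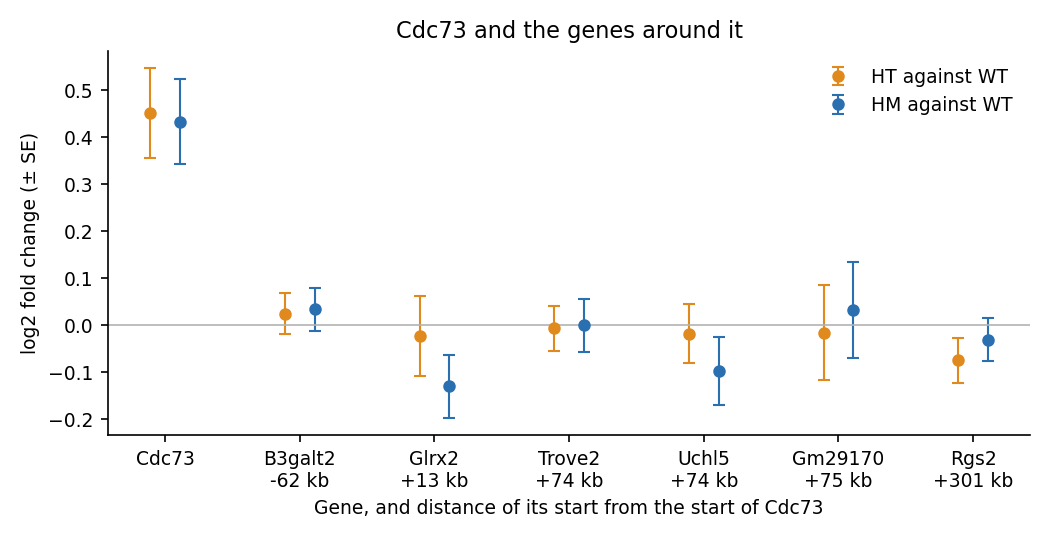
Log2 fold change against WT (± moderated SE, HT orange, HM blue, 4 mice per genotype) of Cdc73, of B3galt2 inside it and of the genes that follow beyond its start. Labels give the distance of each start in kb. Cdc73 lies at 0.45 and 0.43, and the others between -0.13 and 0.03.

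The partners lie elsewhere in the genome: Paf1 at chr7:28392951-28399388, Ctr9 at chr7:111028951-111056377, Leo1 at chr9:75441524-75466432 and Rtf1 at chr2:119675068-119735407, all on the plus strand and with no annotated gene overlapping them. Leo1 shares chromosome 9 with Slc6a20a. Per kb of the longest transcript, the WT levels were 870 normalized counts for Paf1, 622 for Rtf1, 471 for Ctr9, 148 for Leo1 and 116 for Cdc73. Cdc73 was thus the lowest of the 5 per length in WT, and at 160 in HT and 158 in HM it was beside Leo1 at 155 in both; this order depends on which transcript is taken for the length.

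The start regions of the members differed in base composition. RefSeq start regions (250 bases before to 50 after the start, GRCm38.p6) were at hand for 4 of the 5 members. That of Cdc73 was 79.7% GC with 54 CpG, a GC content above that of 98.8% of 32851 start regions, whose medians were 52.7% GC and 7 CpG. Those of Paf1, Leo1 and Rtf1 were 54.0%, 61.3% and 71.3% GC with 14, 26 and 38 CpG. The 250 bases before the start are printed 5′ to 3′ on the strand of the gene for Cdc73, Paf1 and Rtf1. Cdc73 was selected for its difference, Paf1 had a negative correlation with it, and Rtf1 had the smallest SD within genotypes. Capitals mark the GC box (GGGCGG or its complement CCGCCC), the letters bound by SP1 and related factors.
Cdc73, chr1:143702894-143703143, minus strand: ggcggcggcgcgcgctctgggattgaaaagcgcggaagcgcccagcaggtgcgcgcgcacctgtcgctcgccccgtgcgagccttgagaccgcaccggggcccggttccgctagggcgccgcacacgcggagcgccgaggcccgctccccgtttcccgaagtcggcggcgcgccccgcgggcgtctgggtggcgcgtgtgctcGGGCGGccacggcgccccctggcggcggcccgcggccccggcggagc
Paf1, chr7:28392746-28392995, plus strand: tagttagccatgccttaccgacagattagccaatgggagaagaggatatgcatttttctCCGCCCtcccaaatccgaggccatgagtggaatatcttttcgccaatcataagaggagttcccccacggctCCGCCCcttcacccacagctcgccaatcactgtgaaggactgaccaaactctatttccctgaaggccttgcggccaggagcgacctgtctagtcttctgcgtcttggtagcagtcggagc
Rtf1, chr2:119674818-119675067, plus strand: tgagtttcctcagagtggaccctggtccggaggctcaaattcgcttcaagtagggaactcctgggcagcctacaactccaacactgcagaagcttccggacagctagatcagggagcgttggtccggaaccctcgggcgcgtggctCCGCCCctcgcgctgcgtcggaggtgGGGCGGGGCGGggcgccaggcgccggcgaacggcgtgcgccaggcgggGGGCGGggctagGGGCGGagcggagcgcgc
The GC box occurred 1 time for Cdc73, 2 times for Paf1, 2 times for Leo1 and 5 times for Rtf1 (where neighbouring copies share 1 base), and in 35.7% of all start regions. The CCAAT box (CCAAT or ATTGG) occurred 3 times for Paf1 and not in the windows of the other 3, and in 37.4% of all. The TATA box (TATAAA or TTTATA) was in none of the 4 windows and in 13.6% of all. B3galt2, inside the Cdc73 gene, starts from a region of 37.7% GC with 5 CpG and none of the 3 motifs.

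The genes that work with the complex were described through 6 lists of 95 genes: factors of pausing and elongation, H2B ubiquitylation and H3 methylation, RNA polymerase II subunits, 3′ end processing, the Ski complex, and Wnt and beta-catenin. By limma 0 of the genes tested passed an adjusted p of 0.05 in any comparison. At an unadjusted p of 0.05, 3 were higher and 4 lower among 94 tested in HT against WT (7.45%, beside 6.42% of all genes), 5 higher and 3 lower in HM against WT (8.51%, beside 6.99%), and 2 higher and 1 lower among 95 in HM against HT (3.16%, beside 3.74%). Of the 94, 0 lay further above WT than Cdc73 on the log2 scale in HT, and 1 did in HM, Lgr5, a Wnt target and receptor (WT 156 ± 49.4, HT 168 ± 27.7, HM 258 ± 58.2 normalized counts). The HM mice were also those with higher olfactory bulb markers; the part of these in the Lgr5 level was not tested.

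Among 31 elongation factors, 1 passed the unadjusted threshold upward and 2 downward in HT, and 2 each way in HM. These are 9.68% and 12.9% of the list, beside 6.42% and 6.99% of all genes. Supt6, a histone chaperone that moves with the polymerase, was at 5574 to 5761 normalized counts in WT, 5992 to 6192 in HT and 5927 to 6234 in HM. Both mutant genotypes lay above all WT mice, with log2 differences of 0.10 and 0.11 (limma adjusted p = 0.768 and 0.643). Of all genes tested, 3.73% (HT) and 4.22% (HM) did not overlap with WT, in either direction. Nelfe, a subunit of the pausing factor NELF, was 597 ± 29.1 in WT, 506 ± 43.9 in HT and 528 ± 62.1 in HM. Eaf2, of the ELL elongation factors, was low throughout, at 18.5 to 24.9 in WT, 9.61 to 16.1 in HT and 11.0 to 19.6 in HM. Its log2 differences of -0.70 and -0.57 were larger in size than those of Cdc73 and in the other direction.

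The histone list, in which the complex's best-known effects lie, held 20 genes. In HT 0 of 20 passed the unadjusted threshold, and in HM only Hcfc1, a shared subunit of H3 methyltransferases, did (4762 ± 83.0 in WT, 4966 ± 194 in HT, 5046 ± 93.5 in HM). The list's median log2 difference was 0.02 in both. Of the 12 RNA polymerase II subunits, 3 passed in HT and 2 in HM, in both directions (25% and 16.7%). Over all genes the shares at that threshold were 6.42% in HT and 6.99% in HM. Polr2a, the largest subunit, was 3420 ± 292 in WT, 3761 ± 164 in HT and 3913 ± 101 in HM. All HM mice lay above WT in Polr2a, and HM and WT failed to overlap, in either direction, in 4.22% of all genes. Polr2c was 1404 ± 47.5, 1260 ± 48.9 and 1322 ± 76.7 in the same order. Neither passed after adjustment (0.770 and 0.768 in HT, 0.643 and 0.771 in HM).

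In 3′ end processing 0 of 13 genes passed the unadjusted threshold against WT. Cstf1, a cleavage factor subunit, and Cpsf1, a subunit of the factor that binds the polyadenylation signal, did in HM against HT. They are 15.4% of the list, beside 3.74% of all genes. The Ski complex, with which Wdr61 is shared, had 0 of 3. Against WT, 6.42% (HT) and 6.99% (HM) of all genes passed that threshold. Of 15 Wnt and beta-catenin genes tested, 1 passed in each mutant, namely Bcl9, a beta-catenin coactivator, in HT (1780 ± 161 in WT, 2044 ± 85.9 in HT, 1884 ± 184 in HM) and Lgr5 in HM. Whole brain mixes many cell types, and more cells of a type that holds Cdc73 and more Cdc73 RNA per cell cannot be told apart in these values.

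**Figure D5:**
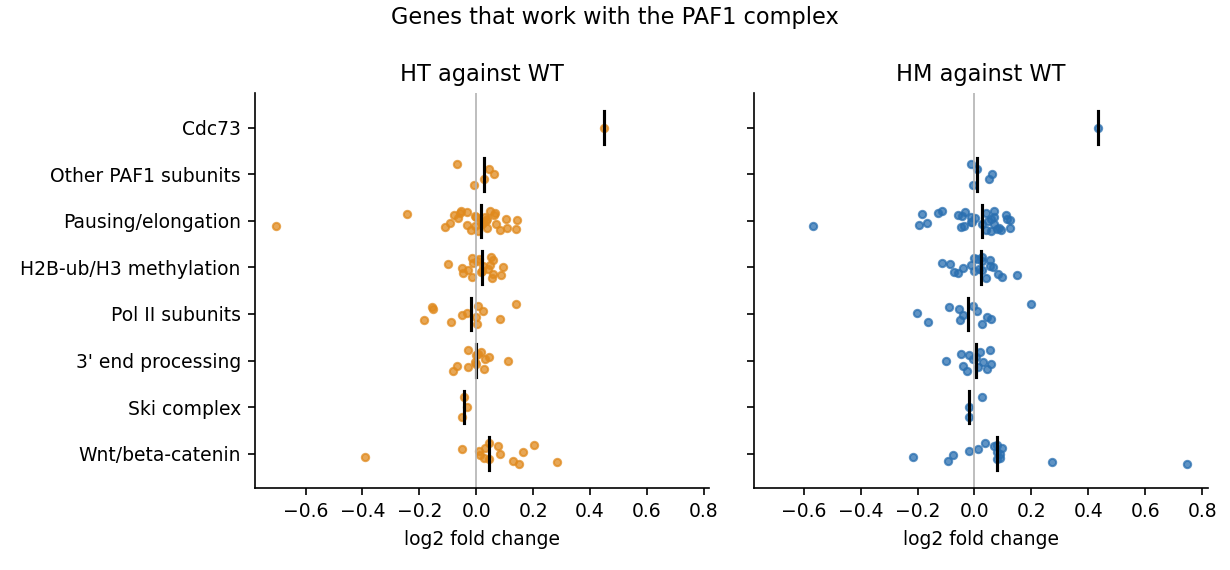
Log2 fold change of each gene against WT (left HT, right HM), grouped by list; each point is a gene and the black mark the median of its group. Cdc73 stands at 0.45 and 0.43, the other subunits near 0, and the points further from 0 than Cdc73 are Eaf2, to the left at -0.70 and -0.57, and in HM Lgr5, to the right at 0.75.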

How the data were processed

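Whole-brain RNA of 12 mice (4 WT, 4 HT, 4 HM, with columns named KO taken as HM) was prepared with a poly-A kit. Whether the kit marks strand is not stated in the paper. The authors estimated transcript abundance with Salmon 1.1.0 (GRCm38), summed it per gene and deposited DESeq2 1.30.1 normalized counts, a signal per gene; GC bias was modelled there, and the annotation release is not given in the sources used here. Raw reads could not be recovered: at most 46.3% of low values in a mouse were whole multiples of a step (tolerance 0.1 step). Hence depth per library is unknown and a count test could not be run.

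Here log2(normalized count + 1) was tested with limma 3.58.1 (R 4.3.3, trended eBayes) over genes with a mean of at least 10 in the 8 mice compared (18004, 18004 and 17986 genes), with Benjamini-Hochberg adjustment over all of them. A pseudocount of 1 understates folds of low genes. Each comparison used only its own mice. Whether mice share litters is not given. The fit was tested on simulated data. Coordinates are from GENCODE M21, in which 19758 of 19775 gene IDs were found. Members and lists were chosen with earlier results of these data known. Named genes were the members, Wdr61, Slc6a20a, genes within or near Cdc73, the 5 most like Cdc73, and up to 4 per list by smallest p. Alternatives changed pseudocount, filter, variance prior, scaling, GC and length, blocks, and left out each mouse.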

Additional observations from a re-analysis of the deposited data

How the results depend on the processing

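Under all alternatives 0 of Paf1, Ctr9, Leo1 and Rtf1 passed the threshold in any comparison by limma, with adjusted p from 0.752 to 1.00. The Cdc73 difference from WT, which chose the gene, was 0.37 to 0.55 in HT and 0.36 to 0.52 in HM, which is no independent support. Differences near 0 changed sign. For HM against WT, GC and length correction gave 0.01 for Paf1 and -0.0018 for Ctr9, and a block for animal number gave -0.05 for Ctr9; leaving out 1 mouse gave -0.04 to 0.02 for Paf1 and -0.02 to 0.04 for Ctr9. For HM against HT, the animal number block gave 0.08 for Cdc73, and leaving out 1 mouse gave -0.12 to 0.07 for Cdc73 and -0.02 to 0.02 for Leo1. Leo1 and Rtf1 kept their direction against WT.

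The number of genes called over the whole table was 0 in HT against WT and 1 in HM against WT without a trend in the variance prior. In HM against HT it was 2 with no filter and 3 with the animal number block. Leaving out 1 mouse gave 1 to 5 genes in HT against WT, 2 to 3 in HM against WT and 1 to 7 in HM against HT. In HT against WT, 5 genes were called without HT replicate 3, Cdc73 among them, and 2 without WT replicate 2. Cdc73 was called under no other setting in any comparison. As it was chosen for this difference, that call is no independent support. In HM against HT, 7 were called without HM replicate 2 or HM replicate 3, 3 without HT replicate 3 or HT replicate 4, and 2 without HT replicate 2. The cause was not tested. The replicate block, with numbers that do not pair the mice (correlations of same-numbered mice between -0.07 and 0.09, and 2 of 12 matching their own number best), gave 1 gene in HM against WT. Gtf3c4 in HM against WT was lost without the trend, with the replicate block and with the animal number block, which called Gm49342 in its place.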
